A study of Mus musculus with 32 samples.

Results

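The 10 genes described here encode proteins of the acrosome or of the sperm surface that it exposes: Acr, Acrbp, Acrv1, Spink2, Zpbp, Zpbp2, Spaca1, Spaca3, Izumo1 and Crisp2. They were taken by symbol, matched to Ensembl identifiers through the GENCODE mouse annotation, and are 10 of the 85539 genes for which transcripts were quantified. RNA-seq was performed on germ cells of 28 individual juvenile C57BL/6J males, 3 at 8 dpp (days postpartum) and 5 at each of 10, 12, 14, 16 and 18 dpp. The tubules of the juvenile testes were digested and washed to remove interstitial cells, and no cell type was sorted from the suspension. Adult values came from 4 samples of pachytene and diplotene spermatocytes, each enriched by sedimentation at unit gravity (STA-PUT) from the pooled testes of 6 C57BL/6J males of 9 weeks. The labels name no mutation and no treatment for any of the mice, and the groups differ by age and by enrichment. Levels are in TPM, the relative abundance of transcripts after correction for their length, and differences are on the scale of log2(TPM + 1).

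The acrosome is a secretory vesicle that the Golgi apparatus builds over the nucleus of the round spermatid. At fertilization its contents are released near the zona pellucida, the coat of the egg, and proteins of its membranes become exposed on the sperm head. Although the organelle takes shape after meiosis, several of its genes are known to be transcribed already in spermatocytes, the cells of meiotic prophase. In juvenile testes the first wave of spermatogenesis enters prophase nearly in step, so that later stages of prophase appear only at later ages.

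The 10 genes separated by level. Acr, Acrbp, Spink2, Zpbp, Zpbp2 and Crisp2 were at or below 9.41 TPM in every mouse up to 12 dpp and at or above 21.1 TPM in every mouse at 18 dpp, while Spaca1 went from a mean of 2.44 to 6.96 TPM between 8 and 18 dpp and Acrv1, Spaca3 and Izumo1 stayed under 3 TPM in every juvenile mouse. All 10 had at least 6.41 TPM in every adult sample.

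**Figure D1:**
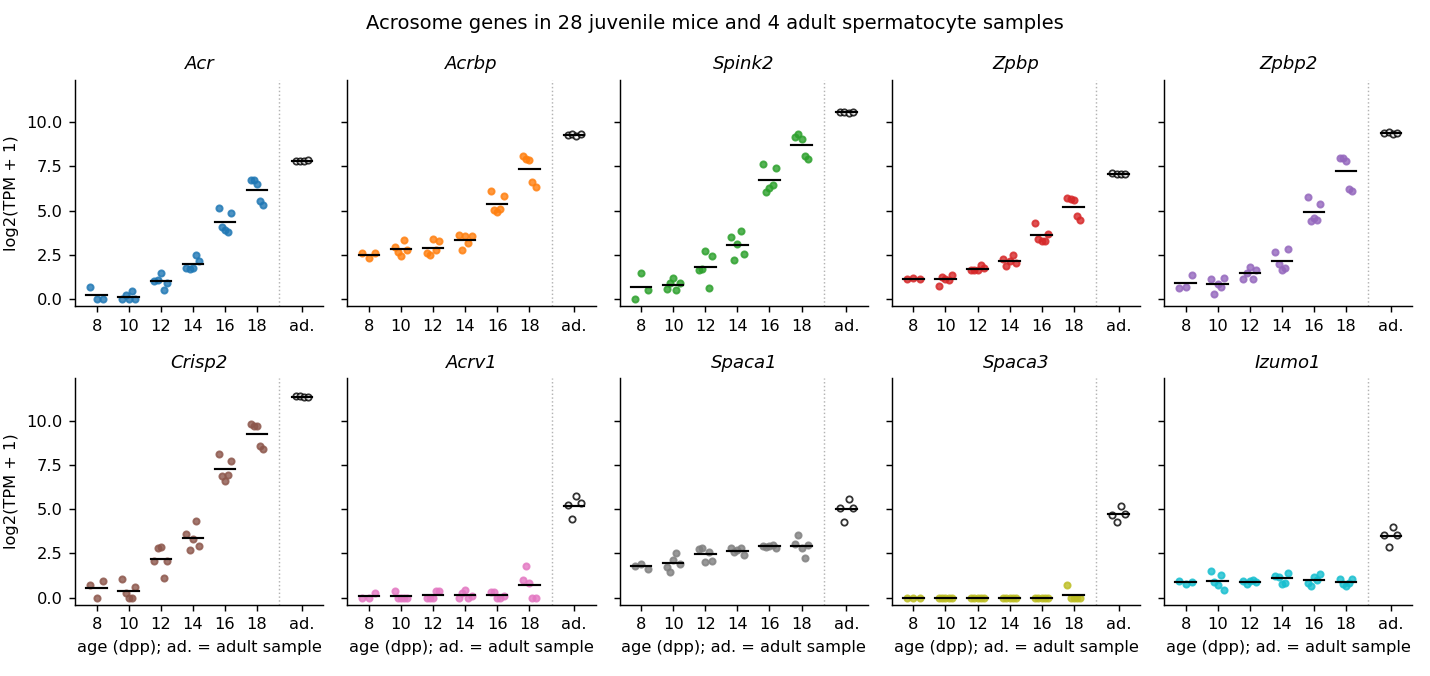
Expression of the 10 genes as log2(TPM + 1) against age in dpp, with 1 filled point per juvenile mouse, open points for the 4 adult samples (ad.) and a bar at each group's mean. The dotted line separates 2 tables that were normalized apart. The upper row and Crisp2 climb from 14 dpp on, with Crisp2 from a mean of 10.2 TPM at 14 dpp to 657 TPM at 18 dpp, whereas Acrv1, Spaca3 and Izumo1 lie near the bottom until the adult samples.

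Sequence before a RefSeq start of transcription is shown for 3 of the genes that climbed and, beside them, for Izumo1, which did not. RefSeq promoters on GRCm38.p6 (from 250 bases before to 50 bases after a start) were found for 9 of the 10 genes, with Acr the gene without an entry. Short core letters of factors known from spermatocytes were searched on both strands. AACTG, the MYB core, was found in 2 of the 9 genes (Acrv1 and Zpbp2) and in 44.8% of all 32851 promoters. TGACGT, the CRE core, was found in 2 of 9 (Acrbp and Izumo1) and in 7.51% of all promoters. GTTNCC, part of the RFX motif, was found in 6 of 9 and in 45.3% of all promoters, and TATAAA in 1 of 9 (Crisp2) and in 13.6%. The stretches below end at the base before the RefSeq start and are written 5′ to 3′ on the strand of the gene, with capitals for the matched letters, which were TGACGT in Acrbp and Izumo1, AACTG in Zpbp2 and TATAAA in Crisp2, or their reverse complement. They lie at chr6:125049897-125049926 (plus strand) for Acrbp, chr11:98550947-98551096 (plus) for Zpbp2, chr17:40794147-40794296 (minus) for Crisp2 and chr7:45621661-45621810 (plus) for Izumo1.
Acrbp: cctcaccttctgTGACGTagcagccgcgcc
Zpbp2: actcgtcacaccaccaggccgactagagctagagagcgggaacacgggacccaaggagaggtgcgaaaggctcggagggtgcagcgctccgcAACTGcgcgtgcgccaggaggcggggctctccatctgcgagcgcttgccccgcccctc
Crisp2: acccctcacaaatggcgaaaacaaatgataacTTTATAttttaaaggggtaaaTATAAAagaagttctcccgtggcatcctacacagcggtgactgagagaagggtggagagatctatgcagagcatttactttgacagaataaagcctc
Izumo1: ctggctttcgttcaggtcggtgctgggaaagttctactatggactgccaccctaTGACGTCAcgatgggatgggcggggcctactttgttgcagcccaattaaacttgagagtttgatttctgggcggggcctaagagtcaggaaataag
The match in Acrbp began 18 bases before the RefSeq start, inside the annotated first exon of the GENCODE transcript that starts farthest upstream (Acrbp-205), so that 30 bases are shown. Acrbp-205 held 63.7% ± 2.05 of the TPM of Acrbp at 18 dpp (SD, n = 5). For that transcript the match lies in transcribed sequence and not before the start. In Izumo1 the 8 capital letters hold 2 overlapping matches, on opposite strands, that began 96 and 94 bases before the start. Those of Crisp2 began 118 and 97 bases before the start and lie in an intron of 2 of the 8 Crisp2 transcripts annotated in GENCODE (Crisp2-202 and Crisp2-207), and the AACTG match of Zpbp2 began 58 bases before it, upstream of the gene. The Zpbp2 stretch also holds a GTTNCC match on the other strand, left in lower case, that began 113 bases before the start. Among the 5 climbing genes with an entry, no letters searched were common to all, and the 3 entries of Spink2 held none of them. A match is a description of the letters and does not show that a factor binds there.

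Acr encodes proacrosin, the precursor of the serine protease acrosin (ENSMUSG00000022622, chr15:89568326-89574585, plus strand, GRCm38). It was listed at 0 in 2 of 3 mice at 8 dpp, with 0.63 TPM in the other, and at 0, 0.17, 0, 0.35 and 0 TPM at 10 dpp. Levels in mice 1 to 5 at 12 dpp were 1.02, 1.08, 1.83, 0.45 and 0.88 TPM, and in mice 1, 2, 3, 6 and 7 at 14 dpp they were 2.37, 2.24, 2.43, 4.7 and 3.41 TPM. The 10, 12 and 14 dpp groups did not overlap one another. At 16 dpp the 5 mice had 34, 15.5, 13.8, 12.9 and 28.4 TPM, and at 18 dpp 103, 103, 90.1, 46.1 and 39.6 TPM. Every mouse at 18 dpp was above every mouse at 16 dpp, and every mouse at 16 dpp above every mouse at 14 dpp. Acr rose by a log2 fold change of 0.87 from 10 to 12 dpp (SE 0.275, adjusted p = 0.023, limma), 2.37 from 14 to 16 dpp (SE 0.275, adjusted p = 2.5e-07) and 1.82 from 16 to 18 dpp (SE 0.275, adjusted p = 7.69e-06). The first of these calls was lost with no expression limit (adjusted p = 0.0697), in the later-numbered mice alone (0.462), and without mouse 1 or mouse 3 of 10 dpp or mouse 3 of 12 dpp (0.0517, 0.0507 and 0.0717). Its size depended on the pseudocount, being 2.69 with 0.1 in place of 1.

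Acrbp encodes the acrosin-binding protein, which takes part in packaging proacrosin (ENSMUSG00000072770, chr6:125049689-125063267, plus strand). It differed from Acr in having RNA in every mouse. It measured 5.08, 3.94 and 5.19 TPM in the 3 mice of 8 dpp, 4.39 to 9.09 TPM at 10 dpp and 4.64 to 9.41 TPM at 12 dpp. At 14 dpp the mice had 11.2, 5.92, 10.9, 8.06 and 10.8 TPM, which overlapped both earlier ages. The 16 dpp mice had 68.2, 31.5, 29.3, 32.6 and 55 TPM and the 18 dpp mice 273, 240.1, 236, 96.1 and 80.7 TPM, with no overlap between these ages or with 14 dpp. The log2 fold change was 2.04 from 14 to 16 dpp (SE 0.293, adjusted p = 7.05e-06, limma) and 1.98 from 16 to 18 dpp (SE 0.293, adjusted p = 5.87e-06). From 10 to 12 dpp it was 0.07 (adjusted p = 0.916). The gene overlaps 2 annotated non-coding genes, 4930557K07Rik on the opposite strand and Gm44597 on its own, and reads could be shared with them.

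Spink2 encodes a Kazal-type inhibitor of serine proteases such as acrosin (ENSMUSG00000053030, chr5:77205107-77211471, minus strand). Its RNA was at 0, 1.77 and 0.41 TPM at 8 dpp, between 0.43 and 1.25 TPM at 10 dpp and at 2.15, 2.26, 5.51, 0.57 and 4.42 TPM at 12 dpp. The 14 dpp mice had 10.5, 3.63, 7.73, 13.2 and 4.76 TPM. These ages overlapped their neighbours. At 16 dpp the mice had 199.5, 65.5, 76, 85.3 and 167 TPM, all above the highest mouse at 14 dpp, and at 18 dpp 581, 641, 533, 269.6 and 237 TPM, all above the highest at 16 dpp. Spink2 rose by 3.72 log2 units from 14 to 16 dpp (SE 0.385, adjusted p = 4.03e-08, limma) and by 1.95 from 16 to 18 dpp (SE 0.385, adjusted p = 0.000147), and its difference of 1.01 from 10 to 12 dpp did not pass the threshold (adjusted p = 0.0613), although it did with a pseudocount of 0.5 (adjusted p = 0.0441) or without mouse 4 of 12 dpp (0.0152).

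The zona pellucida binding proteins are paired genes of the acrosomal matrix, and both lie on chromosome 11. Zpbp (ENSMUSG00000020193, chr11:11279626-11462408, minus strand) was low but present in every mouse, at 1.19, 1.27 and 1.21 TPM at 8 dpp and 0.69, 1.34, 1.2, 1.13 and 1.52 TPM at 10 dpp. It was at 2.18, 2.17, 2.08, 2.73 and 2.42 TPM at 12 dpp and at 3.89, 2.66, 3.41, 4.62 and 3.14 TPM at 14 dpp. The 12 dpp mice were all above the 10 dpp mice, and the change passed the threshold (log2 fold change 0.62, SE 0.209, adjusted p = 0.0344, limma). That call was lost with median-of-ratios factors (adjusted p = 0.0603), with no expression limit (0.0926), in mice 1 to 3 alone (0.0508) or in the later-numbered mice alone (0.139). It was also lost without any 1 of 6 mice (mice 1, 3 and 4 of 10 dpp and mice 1, 4 and 5 of 12 dpp; adjusted p 0.0503 to 0.101). The 16 dpp mice had 18.6, 9.65, 8.78, 8.92 and 11.9 TPM and the 18 dpp mice 50.9, 49.2, 48.2, 24.9 and 21.1 TPM. Zpbp rose by 1.43 from 14 to 16 dpp (SE 0.209, adjusted p = 9.07e-06) and by 1.63 from 16 to 18 dpp (SE 0.209, adjusted p = 1.79e-06), with no overlap at either step. Zpbp spans 4 other annotated genes, 1 of them coding (Spata48), so that its reads are less certain.

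Zpbp2 (ENSMUSG00000017195, chr11:98551097-98558665, plus strand) started no higher than Zpbp and ended above it. It was at 0.54, 0.61 and 1.52 TPM at 8 dpp, 0.21 to 1.27 TPM at 10 dpp, 1.16 to 2.52 TPM at 12 dpp and 5.31, 2.94, 2.12, 2.43 and 6.03 TPM at 14 dpp. The 16 dpp mice had 53.9, 20.2, 22.8, 20.9 and 40.4 TPM, and the 18 dpp mice 255, 252, 223, 73 and 67 TPM. Neither later age overlapped the age before it. Its log2 fold change was 2.74 from 14 to 16 dpp (SE 0.348, adjusted p = 1.05e-06, limma) and 2.30 from 16 to 18 dpp (SE 0.348, adjusted p = 7.59e-06).

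Crisp2 encodes a cysteine-rich secretory protein of the acrosome and sperm tail (ENSMUSG00000023930, chr17:40764020-40807003, minus strand) and had the highest level of the 10 at 18 dpp. It was at 0.64, 0 and 0.92 TPM at 8 dpp and at 1.05, 0.18, 0, 0 and 0.53 TPM at 10 dpp. The 12 dpp mice had 3.23, 6.01, 6.28, 1.19 and 3.22 TPM, all above the 10 dpp mice, and the 14 dpp mice 11.2, 5.5, 8.91, 18.9 and 6.68 TPM. Crisp2 rose by 1.82 log2 units from 10 to 12 dpp (SE 0.359, adjusted p = 0.000513, limma), or by 3.61 with a pseudocount of 0.1, and in the later-numbered mice alone that step was not called (adjusted p = 0.186). The 16 dpp mice had 274, 118, 94.2, 123 and 210.2 TPM and the 18 dpp mice 919, 828, 819, 382 and 339 TPM, without overlap between 14, 16 and 18 dpp. The step from 14 to 16 dpp was 3.88 (SE 0.359, adjusted p = 7e-09) and the step from 16 to 18 dpp 1.99 (SE 0.359, adjusted p = 5.44e-05).

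Spaca1, an acrosomal membrane protein needed for a normal sperm head (ENSMUSG00000028264, chr4:34024874-34050191, minus strand), followed another course. Its RNA was at 2.48, 2.72 and 2.12 TPM at 8 dpp, 2.3, 1.72, 3.39, 4.77 and 2.68 TPM at 10 dpp and 5.77, 6.14, 3.06, 4.93 and 3.2 TPM at 12 dpp. At 14 dpp it was between 4.42 and 6.02 TPM, at 16 dpp between 6.09 and 6.94 TPM, and at 18 dpp the mice had 7.17, 10.8, 6.09, 3.79 and 6.98 TPM, so that the lowest mouse at 18 dpp was below every mouse at 14 and 16 dpp. Spaca1 rose by 1.16 from 8 to 18 dpp (SE 0.229, adjusted p = 7.13e-05, limma), but no change between successive ages passed the threshold in all mice. From 10 to 12 dpp the difference was 0.51 (adjusted p = 0.0683), and it passed in mice 1 to 3 alone (0.77, adjusted p = 0.0258) and without any 1 of 5 mice (mouse 4 of 10 dpp, mice 3 and 5 of 12 dpp, mice 2 and 4 of 18 dpp; adjusted p 0.0186 to 0.0465). The difference was 0.25 from 14 to 16 dpp (SE 0.198, adjusted p = 0.39) and 0.03 from 16 to 18 dpp (SE 0.198, adjusted p = 0.92), the steps at which the 6 genes above rose.

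The remaining genes were below the expression limit of 3 TPM in all 28 mice. Acrv1, the acrosomal matrix protein SP-10 (ENSMUSG00000032110, chr9:36693220-36698843, plus strand), was listed at 0 in 15 mice and at no more than 0.37 TPM in any mouse up to 16 dpp. At 18 dpp it was at 0.99, 2.43 and 0.77 TPM in mice 1 to 3 and at 0 in mice 4 and 5. Spaca3, a lysozyme-like acrosomal protein (ENSMUSG00000053184, chr11:80858365-80867814, plus strand), was listed at 0 in 27 mice and at 0.63 TPM in mouse 1 of 18 dpp. Izumo1, the sperm protein that binds the egg's receptor Juno before fusion (ENSMUSG00000064158, chr7:45621811-45628823, plus strand), was never at 0, and lay between 0.35 and 1.87 TPM over all mice. Its 18 dpp values of 1.06, 0.69, 0.59, 0.79 and 1.1 TPM overlapped those at 8 dpp, which were 0.94, 0.71 and 0.86 TPM. The gene overlaps Rasip1 on the same strand. At 18 dpp the coding transcript Izumo1-201 held 48.3% ± 35.4 of the summed level (SD, n = 5), from 0% to 100% by mouse. The rest lay in a transcript without a name or type in the annotation used. In a limma fit with no expression limit (60085 genes), the log2 fold change from 8 to 18 dpp was 0.63 for Acrv1 (SE 0.253, adjusted p = 0.0632), 0.14 for Spaca3 (SE 0.0943, adjusted p = 0.312) and 0.001 for Izumo1 (SE 0.193, adjusted p = 1).

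Counted over all tested genes, limma called 2594 of 20368 genes higher at 16 than at 14 dpp (12.7%) and 4775 higher at 18 than at 16 dpp (23.4%). Of the 10 genes, 7 passed the limit of 3 TPM in at least 1 mouse, and 6 of these 7 were called higher at each of the 2 steps. Since Acr, Spink2, Zpbp, Zpbp2 and Crisp2 pass that limit through the ages at which they are high, the counts were also taken with no limit, where 6 of 10 were called higher at each step against 3.91% and 10.6% of 60085 genes. The median log2 fold change of the 7 genes was 2.37 from 14 to 16 dpp and 1.95 from 16 to 18 dpp, beside -0.064 and -0.113 for all genes. With no limit the medians of the 10 genes were 1.74 and 1.72, beside -0.003 and 0.0. From 10 to 12 dpp 3 of 7 were called higher (Acr, Zpbp and Crisp2; 12.0% of all genes), a count that was 1 of 10 with no expression limit (3.38% of 60085 genes), 1 of 7 without mouse 1 or without mouse 3 of 10 dpp, and 2 of 7 with median-of-ratios factors. From 8 to 10 dpp limma called 0 of 7, with 0 at an unadjusted p under 0.05 (0.977% of all genes higher, and 2337 genes at an unadjusted p under 0.05). From 12 to 14 dpp it called 0 of 7, with 5 at an unadjusted p under 0.05 (0.157% of all genes higher, and 1962 genes at an unadjusted p under 0.05). In all 6 climbing genes, which were grouped by their rise at these ages, the mice of 14, 16 and 18 dpp did not overlap between ages. With the later age higher, this was so in 10.7% of 20368 genes at the step to 16 dpp and 13.2% at the step to 18 dpp. These shares cover only genes that passed the limit, and the separation of the 6 genes adds no support of its own. Spaca1 was also separated from 14 to 16 dpp. From 10 to 12 dpp Acr, Zpbp and Crisp2 were separated, as were 10.0% of all genes, and from 12 to 14 dpp Acr, as were 1.56%. Over the whole span from 8 to 18 dpp all 7 were called higher, beside 31.8% of all genes, and with no limit 7 of 10, beside 14.9% of 60085 genes. All 7 were called for any difference among the 6 ages, beside 77.6%, and with no limit 7 of 10, beside 32.8%. Scaling by median-of-ratios factors left 6 of 7 at each of the last 2 steps, while it moved the share of calls that were higher from 53.0% to 66.3% at 14 to 16 dpp and from 43.4% to 63.0% at 16 to 18 dpp over all genes. Markers of some cell types moved at the same steps. Of 6 tested markers of pachytene spermatocytes 5 were called higher at each of the last 2 steps (medians 1.73 and 1.07), while 5 and then 7 of 8 Sertoli cell markers and 3 and then 6 of 6 spermatogonial markers were called lower (limma). With median-of-ratios factors these counts were 5 and 6, 4 and 7, and 3 and 6. Over all genes 2296 and 6227 of 20368 were called lower at these steps, and 1454 and 3630 with median-of-ratios factors. Of 6 Leydig cell and 5 red blood cell markers, 0 were called at either step. From 14 to 16 dpp 1 of 5 macrophage markers was called higher, and 0 of 5 peritubular and 0 of 4 endothelial markers were called. From 16 to 18 dpp 4 macrophage, 3 peritubular and 1 endothelial markers were called lower (3, 1 and 0 with median-of-ratios factors). The part of these cell types in the rise of the 6 genes was not tested. From the RNA of such mixed suspensions alone, more cells of a type and more RNA per cell cannot be told apart. The authors also scored cell stages by cytology in aliquots of the same samples, and those counts were not used here.

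**Figure D2:**
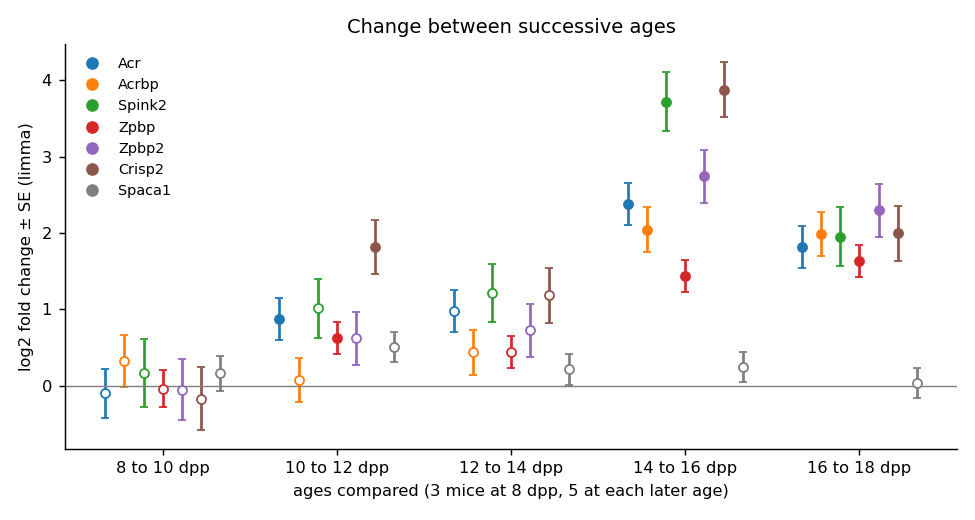
Log2 fold change between successive ages, on the log2(TPM + 1) scale, for the 7 genes tested, with bars for the standard error and filled points for an adjusted p under 0.05 (limma). Filled points gather at the last 2 steps, and the open grey points of Spaca1 stay between 0.03 and 0.51 throughout.

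The size of the steps differed between the genes. From 14 to 16 dpp the mean of Crisp2 rose 16-fold and that of Spink2 14.9-fold, against 8.4-fold for Zpbp2, 6.91-fold for Acr, 4.62-fold for Acrbp and 3.26-fold for Zpbp. From 16 to 18 dpp the folds lay closer together, from 3.36 for Zpbp and 3.66 for Acr to 5.49 for Zpbp2. Of the 6 genes, Acrbp, Zpbp and Zpbp2 had RNA in every mouse at 8 and 10 dpp. The folds were not tested against each other.

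The spread among mice of one age was shared by the 6 genes. The splits of the mice given here were not planned and follow the values of these genes, so that their agreement is only described. At 16 dpp mice 1 and 5 were above mice 2, 3 and 4 in all 6 genes, an order that 16.2% of all 20368 genes also showed. At 18 dpp mice 1, 2 and 3 were above mice 4 and 5 in all 6, as in 25.2% of all genes, and the highest mouse had between 2.41 times (Zpbp) and 3.81 times (Zpbp2) the level of the lowest. The summed level of 7 markers of pachytene spermatocytes moved with them, at 4919, 4978 and 4905 TPM in mice 1 to 3 and 3143 and 3062 TPM in mice 4 and 5 of 18 dpp. At 16 dpp it was 2607 and 1981 TPM in mice 1 and 5, and 1365 to 1624 TPM in the other mice. Ldhc was the largest part of the sum at 18 dpp, at 2920, 3040, 2890, 1590 and 1540 TPM in mice 1 to 5. Piwil1, Ccna1, Hspa2 and Mybl1 were also higher in each of mice 1 to 3 than in mice 4 and 5. Sycp3 was not, at 444, 475, 532, 511 and 549 TPM, and Hist1h1t was at 0.91 TPM or less. The sum of 8 Sertoli cell markers moved opposite to the 6 genes, with 3577 to 3734 TPM in mice 1 to 3 and 4708.8 and 4739.7 TPM in mice 4 and 5 of 18 dpp, and 0 of these 8 markers was at 0 in any group. The sum of 5 markers of peritubular cells was 524 to 586 TPM in mice 1 to 3 and 1006 and 1034 TPM in mice 4 and 5, and that of 6 spermatogonial markers 454 to 481 TPM and 616 and 655 TPM. The part of these cell types in the levels of the 6 genes was not tested.

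**Figure D3:**
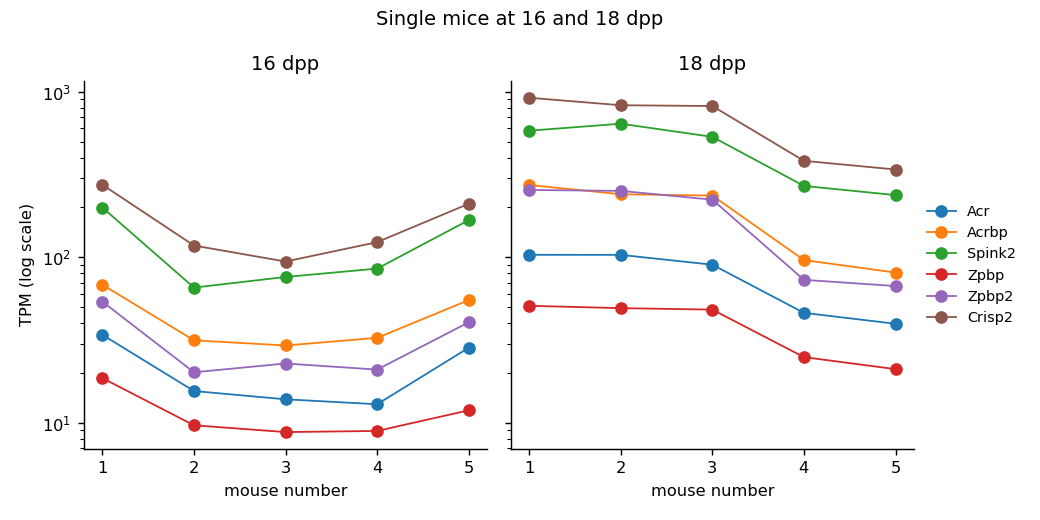
Levels of the 6 genes in TPM (log scale) by mouse number at 16 and 18 dpp, with 1 point per mouse and lines joining the points of a gene only to guide the eye. Mice 1 and 5 are the high mice at 16 dpp and mice 4 and 5 the low mice at 18 dpp for every gene.

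Relative to Ldhc, the lactate dehydrogenase of spermatocytes and the highest of those markers, the 6 genes varied less among the mice of one age, but not among the adult samples. At 16 dpp the coefficient of variation (CV, the SD as a percent of the mean) was 35.7% to 51.0% for the TPM of the 6 genes and 6.72% to 18.6% for their ratio to Ldhc, and at 18 dpp it was 37.5% to 55.0% and 8.96% to 31.2%. In the adult samples it was 1.22% to 3.86% for TPM and higher for the ratio in all 6 genes, at 1.57% to 4.42%. Crisp2 was at 18.0% to 23.2% of the Ldhc level in the mice of 16 dpp, 21.9% to 31.5% at 18 dpp and 38% to 39.3% in the adult samples. Zpbp2 was at 3.27% to 4.52%, 4.34% to 8.73% and 9.32% to 10.1% in the same order. Acr was at 2.43% to 3.03%, 2.57% to 3.55% and 3.19% to 3.46%, so that its ranges at successive groups overlapped, and Zpbp was at 1.27% to 1.68%, 1.37% to 1.74% and 1.87% to 2.03%. The ratio was not planned and was taken to Ldhc alone, with no other marker of that list tried. Sycp3 of the same list did not share the order of the mice at 18 dpp. These ratios were not tested, nor was the part of any cell type in the spread.

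The steps were also taken within mice 1 to 3 of each age and within the later-numbered mice. From 14 to 16 dpp the log2 fold changes of the 6 genes ran from 1.56 (Zpbp) to 3.98 (Crisp2) in mice 1 to 3 and from 1.23 (Zpbp) to 3.74 (Spink2) in the later-numbered mice, and all 6 were called in both sets. From 16 to 18 dpp they ran from 1.99 to 3.01 in mice 1 to 3, with all 6 called, and from 1.04 to 1.23 in the later-numbered mice (2 at each age), where none was called (limma adjusted p from 0.0524 to 0.331). The difference between the sets was not tested. According to the sample titles, the barcodes of the 8, 10 and 12 dpp libraries recur in libraries of 14, 16 and 18 dpp, respectively, and libraries with the same barcode cannot have shared a pool. No label names a pool or a sequencing run, so values within such batches were not formed, and ages and batches, if any, cannot be told apart.

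Most of the RNA of the 6 genes came from few annotated transcripts. Acr and Zpbp have 1 transcript each in the table. Of 3 transcripts of Spink2, Spink2-201 (631 bases) held 98.5% ± 0.55 of the gene's TPM at 18 dpp (SD, n = 5). Crisp2 was divided between Crisp2-201 (1438 bases), with 75.6% ± 2.38, and the shorter Crisp2-205 (758 bases), with 22.9% ± 2.46. Acrbp-205 held 63.7% ± 2.05 of Acrbp and Acrbp-202 31.1% ± 3.02. Zpbp2 was divided among several transcripts, with 48.1% ± 2.28 in Zpbp2-202, 35.0% ± 3.94 in Zpbp2-201 and 8.95% ± 1.82 in Zpbp2-203. At 16 dpp the shares were 74.7% ± 2.39 for Crisp2-201, 61.5% ± 3.63 for Acrbp-205 and 40.4% ± 7.58 for Zpbp2-202. Shares of overlapping transcripts are estimates from reads that mostly fit several of them.

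In the adult spermatocyte samples the levels of the 6 genes were higher and nearly constant. Crisp2 was at 2658, 2698, 2631 and 2629.6 TPM in samples 1 to 4, Spink2 at 1533, 1529, 1477 and 1497 TPM and Zpbp2 at 662, 687, 645 and 676 TPM. Acrbp was at 616, 641, 588 and 636 TPM, Acr at 222, 226, 220.3 and 232 TPM, and Zpbp at 137, 131, 132 and 131 TPM. Their CVs of 1.22% to 3.86% compare with a median of 8.64% over the 11995 genes with at least 3 TPM in all 4 samples. The order of the means was Crisp2, Spink2, Zpbp2, Acrbp, Acr and Zpbp, and the ranges of neighbours in this order did not overlap. At 18 dpp the order was Crisp2, Spink2, Acrbp, Zpbp2, Acr and Zpbp, and the ranges of each pair of neighbours overlapped across mice. Within a mouse the order held in 5 of 5 mice, except for Acrbp, which was above Zpbp2 in 4 of 5. The adult mean was 2.94 times the 18 dpp mean for Acr, 3.34 times for Spink2, 3.35 times for Acrbp, 3.42 times for Zpbp, 3.84 times for Zpbp2 and 4.04 times for Crisp2. The adult table was normalized apart from the juvenile tables and held an enriched, not pure, population in which spermatid and Sertoli cell markers were also found (given below). These ratios therefore have no test.

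The other genes were low in the adult samples and varied more, in a common order. Acrv1 was at 36.8, 20.6, 53.1 and 39.5 TPM in samples 1 to 4, Spaca1 at 32.4, 18.4, 47.8 and 32.9 TPM, Spaca3 at 24.7, 18.3, 35.4 and 25.5 TPM, and Izumo1 at 10.6, 6.41, 15.2 and 10.6 TPM. Sample 2 was the lowest and sample 3 the highest for each of the 4 genes, with CVs of 35.6%, 36.6%, 27.2% and 33.5%. None of the 6 genes above had that order, and 1575 (13.1%) of the 11995 genes did. In the order of means, the range of Spaca1 overlapped those of Acrv1 and Spaca3, although Acrv1 was above Spaca1 and Spaca1 above Spaca3 in 4 of 4 samples, while Izumo1 was below Spaca3 without overlap. The adult mean was 4.72 times the 18 dpp mean for Spaca1 and 12.6 times for Izumo1. For Acrv1 and Spaca3, at 0 in several mice of 18 dpp, no ratio was formed.

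**Figure D4:**
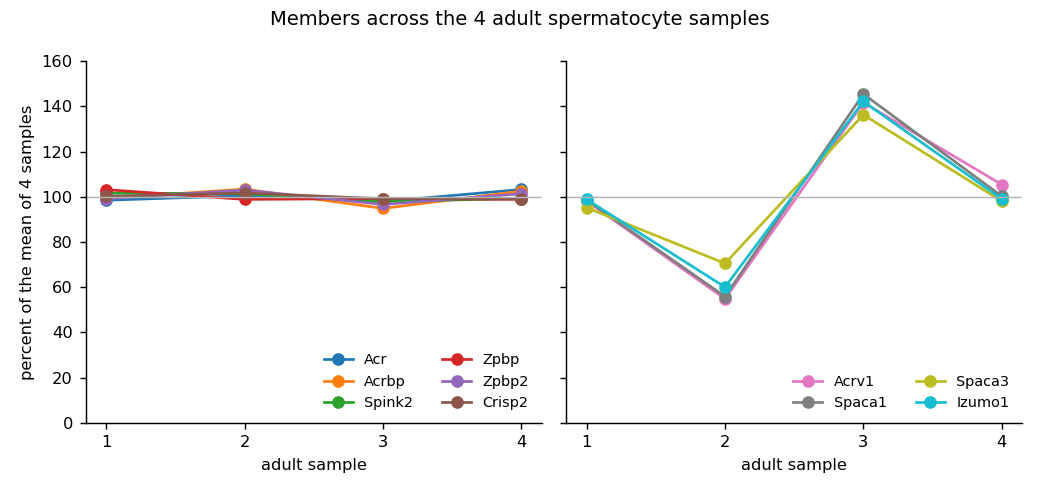
Level of each gene in the 4 adult samples as a percent of its own mean, with the 6 genes that climbed in juvenile mice on the left and the other 4 on the right. The left lines are flat, with CVs of 1.22% to 3.86%, and the right lines all dip at sample 2 and peak at sample 3.

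Markers of spermatids, the cells after meiosis, were compared between the same samples. The sum of 8 spermatid markers was between 0.99 and 8.09 TPM in the mice of 18 dpp and at 1070.1, 954, 1205 and 1268 TPM in adult samples 1 to 4. The highest juvenile value of any of the 8 was 2.73 TPM, for the tail protein gene Odf1. In the adult samples the protamine gene Prm2 averaged 270 ± 25.8 TPM and the transition protein gene Tnp1 273 ± 40.0 TPM (SD, n = 4). Of the 8 markers, 2 (Odf1 and Tssk6) were lowest in sample 2 and highest in sample 3, and the sum was lowest in sample 2 but highest in sample 4. The labelled spermatocyte markers were present in the adult samples, with Ldhc at 6850 ± 140 TPM (SD, n = 4), while the late spermatocyte histone gene Hist1h1t was low at 3.4 ± 0.98 TPM. The libraries were made from poly-A RNA, whereas the paper stained the Hist1h1t protein to stage these cells. The low TPM therefore does not show that the gene is silent in them. The sum of 8 Sertoli markers was between 321 and 470 TPM in adult samples. The part of spermatids in the adult levels of Acrv1, Spaca1, Spaca3 and Izumo1 was not tested.

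A wider set of 39 acrosome and fusion genes was examined in the same way, of which 38 had an identifier in the table (Dcst2 had none) and 21 passed the limit of 3 TPM in a juvenile mouse. From 8 to 18 dpp 17 of the 21 were called higher and 2 lower (limma; 17 and 1 with median-of-ratios factors), beside 31.8% and 36.3% of all genes. Several of the 21 passed the limit through the ages at which they were high, so the counts were also taken with no limit. There 36 genes had RNA in some mouse, 21 were called higher and 3 lower, beside 14.9% and 15.8% of 60085 genes. The 3 lower genes were Tbc1d20, Spaca6 and Spaca5, the last of which was at 0 in 27 of 28 mice. Of 8 genes for acrosomal enzymes and matrix proteins, 2 were tested and both rose. Pcsk4, a proprotein convertase of germ cells, reached 45.6 ± 13.6 TPM at 18 dpp (SD, n = 5) from a mean of 4.46 (log2 fold change 3.05, SE 0.282, adjusted p = 2.96e-10), and the protease gene Prss21 went from 0 to 29.3 ± 19.9 TPM (log2 fold change 4.57, SE 0.464, adjusted p = 1.79e-09). Of 7 acrosomal membrane genes, 2 were tested and both rose. Spesp1, of the equatorial segment, reached 69.1 ± 32.2 TPM (log2 fold change 5.46, SE 0.304, adjusted p = 1.64e-14) and Spaca9 22.2 ± 5.31 TPM (log2 fold change 3.43, SE 0.334, adjusted p = 7.95e-10). With no limit, 4 of 7 genes of the first list and 3 of 7 of the second were called higher, and their medians were 0.35 and 0.36.

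Of 7 matched sperm-egg fusion genes, 2 were tested, of which Izumo4 rose from 2.64 to 62.0 ± 30 TPM (log2 fold change 3.95, SE 0.288, adjusted p = 3.13e-12) and Spaca6, which is required for fusion, fell from 4.32 to 2.04 ± 0.97 TPM (log2 fold change -0.83, SE 0.277, adjusted p = 0.00955). Acrosome biogenesis was the list with most genes expressed in the juvenile testis. Of its 16 genes 15 were tested, 12 rose and 1 fell, and the median was 0.99, beside -0.094 for all genes. With no limit, 13 of 16 rose and 1 fell, with a median of 0.95. The gene that fell was Tbc1d20, slightly (log2 fold change -0.16, adjusted p = 0.0188), and with median-of-ratios factors its change was 0.015 (adjusted p = 0.867). The largest rises were those of Spata16, a Golgi-associated protein, which went from 0.0967 to 146 ± 76.7 TPM (log2 fold change 6.87, SE 0.357, adjusted p = 4.51e-15), of Dpy19l2, which anchors the acrosome to the nucleus, from 0.263 to 65.4 ± 32.6 TPM (5.56, SE 0.326, adjusted p = 4.22e-14), and of the actin-like gene Actl9, from 0 to 32.0 ± 15.0 TPM (4.90, SE 0.313, adjusted p = 2.24e-13). The general Golgi and trafficking genes Gopc, Agfg1 and Golga3 rose by 1.03 to 1.31 from levels of 14.9 to 41.3 TPM, while the trafficking genes Vps54 and Rab3a of the same list were not called (log2 fold change -0.066, adjusted p = 0.529, and 0.006, adjusted p = 0.983).

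The 17 untested genes of the wider set, like Acrv1, Spaca3 and Izumo1, were at 2.85 TPM or less in every juvenile mouse and had adult means from 1.06 to 34.4 TPM. They included the acrosomal matrix gene Zp3r (18.7 ± 7.26 TPM in the adult samples, SD, n = 4), the hyaluronidase gene Spam1 (9.2 ± 2.65 TPM) and the fusion gene Llcfc1 (32.5 ± 12.7 TPM). Of these 17, 13 were lowest in adult sample 2 and highest in sample 3, against 2 of the 21 tested genes (Spaca9 and Gba2) and 13.1% of all genes compared in the adult samples.

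**Figure D5:**
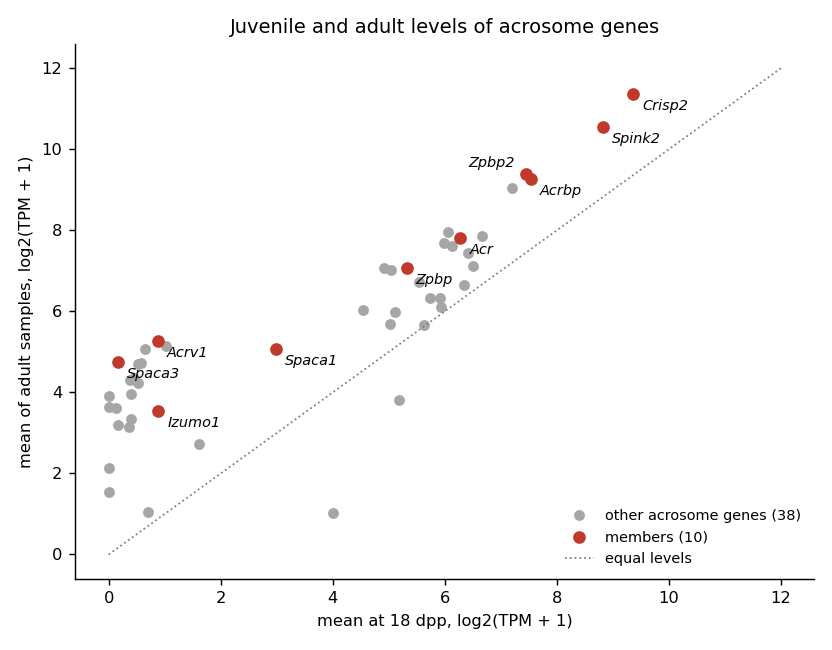
Mean level at 18 dpp (5 mice) against the mean of the 4 adult samples, both as log2(TPM + 1) and from tables normalized apart, for the 10 genes (red) and the 38 genes of the wider set (grey). Points on the dotted line would have equal levels. The red points of the 6 climbing genes lie above the line on the right, those of Acrv1, Spaca3 and Izumo1 near 0 at 18 dpp on the left, and Spaca1 between them, while some grey points lie on the line (Smap2, 48.4 TPM at 18 dpp and 49.6 TPM in the adult samples) or below it (Vps54, 35.3 and 13.1 TPM, and Rab3a, 15.1 and 1.04 TPM).

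For each of the 10 genes, the gene outside the set with the most similar course over the 6 ages was sought among 14889 tested genes with a symbol, as the smallest root mean square difference of the age means of log2(TPM + 1) after centring. Acr was nearest to Ropn1l, a gene of the sperm tail (0.0864 log2 units), which had 673 ± 228 TPM at 18 dpp (SD, n = 5) and thus a higher level with a similar course on this scale. In TPM the courses differed, with means at 8, 14 and 18 dpp of 10.3, 37.4 and 673 for Ropn1l and 0.21, 3.03 and 76.5 for Acr. Acrbp was nearest to Sphkap (0.0972), Spink2 to the flippase gene Atp8b3 (0.114), Zpbp to Mapk8ip2 (0.0753), Zpbp2 to the glycerol kinase gene Gykl1 (0.0944) and Crisp2 to 4922502D21Rik (0.169). Atp8b3 had 369 ± 165 TPM at 18 dpp and an adult mean of 1080 TPM, and 4922502D21Rik had 435 ± 164 and 1470 TPM. Spaca1 was nearest to B4galt7 (0.0381), which went from a mean of 10.5 TPM at 8 dpp to 25.0 TPM at 18 dpp, and Acrv1 to Ehd1 (0.0285), which went from 65.8 to 105 TPM. Spaca3 was nearest to Cops6 (0.0122), at 151 and 166 TPM at those ages, and Izumo1 to Ska2 (0.0244), at 13.0 and 12.7 TPM. Acrv1, Spaca3 and Izumo1 were under 3 TPM in every juvenile mouse, so that their profiles are nearly flat on this scale. Their small distances are set by that floor and do not show a shared course in TPM. Among the 10 genes themselves, Acr and Zpbp2 were nearest to each other (0.259), as were Spink2 and Crisp2 (0.352) and Acrbp and Zpbp (0.354).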

How the data were processed

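Poly-A RNA of the 28 juvenile mice and 4 adult samples was sequenced by the authors, aligned with Bowtie 1.0.0 to annotated transcripts (mm10), and quantified with RSEM 1.2.8, according to the submitters' processing notes and the paper's methods. The deposited transcript and adult tables held TPM, which keeps no read counts, so that depth and counting error are unknown. The deposited juvenile gene table held exp(log2(TPM + 1)) - 1 (unit other), as its comparison with summed transcripts showed, and was converted to TPM. It held 20368 genes, all reaching 3 TPM in some mouse, and lacked Acrv1, Spaca3 and Izumo1, for which transcripts were summed. For the 7 other genes both tables differed by at most 0.01 TPM. The substage assignments in that table are the authors' findings and were not used.

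For age comparisons, limma 3.58.1 (R 4.3.3) was fitted to log2(TPM + 1) of all 6 ages together, letting the prior variance follow the mean, and p-values were adjusted by Benjamini-Hochberg over all genes tested, with 0.05 as the threshold. On simulated data with 200 changed genes among 20368, the comparison of 14 with 16 dpp recovered 79% of changes of 1 log2 unit and 96% of changes of 2, and 5.41% of its calls were unchanged genes. The noise was normally distributed, and changed genes were drawn only from those with a mean log2(TPM + 1) above 1. These rates therefore do not cover lower genes. In the data many more genes were called at this step (2594 higher and 2296 lower). Pseudocounts of 0.1 and 0.5, expression limits, median-of-ratios factors, a constant prior variance, other choices of ages or mice, and omission of each mouse or adult sample were tried as alternatives. Python 3.11.15 was used for the rest. Positions and overlaps came from GENCODE M21 on GRCm38, and the library protocol named no strand. Protein sequences were not analysed here.

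The 10 genes, the marker lists and the wider set were chosen with earlier results of these data known. The genes named are all 10, the nearest gene of each, up to 3 genes per pathway list with the largest change from 8 to 18 dpp among those tested, and markers given beside a result. Other pathway genes (Tbc1d20, Gopc, Agfg1, Golga3, Vps54, Rab3a, Smap2, Spaca5, Zp3r, Spam1, Llcfc1 and Gba2) were named after their values were seen.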

Additional observations from a re-analysis of the deposited data

Results flagged for a closer look

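Of 56 groups of 4 or 5 samples in which a gene varied, 3 had a single sample far from the others on the log2(TPM + 1) scale by Dixon's test. For normally distributed values the test flags 1 in 20 groups by chance. That rate does not hold for groups in which all samples but 1 are at 0, which are always flagged. Mouse 1 of 18 dpp was the mouse with Spaca3, at 0.63 TPM, while the other 4 were at 0. Mouse 1 of 10 dpp was the mouse of its age with Acrv1, at 0.28 TPM, while the other 4 were at 0. Adult sample 1 had 137 TPM of Zpbp, against 131 to 132 TPM in the other samples.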

How the results depend on the processing

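The number of the 10 genes called kept within 1.5 times its main value from 8 to 10, 12 to 14, 14 to 16 and 8 to 18 dpp and for any age under every alternative that could be computed. From 10 to 12 dpp it was 3, and became 1 with no expression limit, 0 in the later-numbered mice alone (chosen after seeing the data), and 1 to 4 when mice were left out in turn, with 1 without mouse 1 or without mouse 3 of 10 dpp. From 16 to 18 dpp it was 6, and became 0 in the later-numbered mice alone, where 2 mice remained at each age. The causes were not tested. The later-numbered mice gave no value from 8 dpp, an age without such mice. Scaling by median-of-ratios factors moved the median of all genes from -0.113 to 0.026 from 16 to 18 dpp and from -0.094 to 0.049 from 8 to 18 dpp, and the calls of the 7 genes at those steps kept their direction.

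Reversals concerned differences near 0. From 10 to 12 dpp, Acrbp (0.071) was at -0.044 in the later-numbered mice and at -0.047 to 0.195 when mice were left out. From 16 to 18 dpp, Spaca1 (0.028) was at -0.279 in the later-numbered mice and at -0.129 to 0.196 when mice were left out. From 8 to 18 dpp, Izumo1 (0.001) was at -0.011 with a pseudocount of 0.1, also added after seeing the data. Of the single genes' log2 fold changes under all alternatives, 16 lost and 8 gained the threshold from 10 to 12 dpp, and 6 lost it from 16 to 18 dpp, all in the later-numbered mice. Those from 14 to 16 dpp kept their direction and call under all alternatives. Mouse numbers did not pair the mice of different ages (correlations of their deviations from the age means were -0.248 to 0.253 in 57 pairs). Adding the number as a replicate block changed none of the calls of the 7 tested genes, and the changes of the 6 climbing genes from 14 to 16 dpp then ran from 1.59 to 4.26. The 8 dpp group had 3 mice, and unknown depth limits what can be said of levels under 3 TPM.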
